A study of Mus musculus with 2 samples.

Results

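The genes described here are 9 transcripts by which tissue-resident and scavenging macrophages are commonly recognised, namely Mrc1, Folr2, Lyve1, Cd163, Timd4, F13a1, Pf4, Cbr2 and Stab1. They were chosen by symbol, each symbol matched 1 row, and they are 9 of the 32285 features counted. Each was followed in cells that carry the complement C1q transcripts and in all other cells of MC38 tumors, with and without MSA-2. MC38 is a mouse colon carcinoma line, here grown under the skin, and MSA-2 is a small-molecule agonist of STING, an adaptor protein that drives type I interferon production.

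Both conditions used MC38 tumors in young adult C57BL/6 mice, and the labels name no engineered allele in either. In the MSA-2 arm, tumors received 3 intratumoral doses at 3-day intervals and were collected on day 7. The control arm is labelled untreated, while the methods call it saline-treated and the series record describes a saline and DMSO vehicle. Tumors of 3 mice were pooled into 1 library per condition, so the spread between tumors is unknown and no test between conditions was made. Every interval below is an exact 95% interval for counting error only (Clopper-Pearson for a share, Poisson for a sum, and conditional binomial for the ratio of 2 counts).

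Many tissues hold macrophages that persist there, take up dead cells, debris and circulating ligands through scavenger receptors, and carry high levels of such receptors. Other macrophages arrive as blood monocytes, which express Ly6c2 and Ccr2, and take on C1q, Apoe and class II antigen presentation as they mature in a tumor. F13a1 and Pf4 are less selective, since monocytes also transcribe F13a1 and platelets and megakaryocytes are the textbook source of Pf4.

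Among the members are receptors for ligands and debris. Mrc1 (chr2:14229414-14332023, positions throughout from RefSeq on GRCm38.p6) encodes the mannose receptor. Folr2 (chr7:101839988-101857190) encodes folate receptor beta, and Lyve1 (chr7:110850607-110862953) a hyaluronan receptor that lymphatic endothelium shares with some macrophages. Cd163 (chr6:124304636-124330529) encodes the receptor for haemoglobin bound to haptoglobin, and Timd4 (chr11:46810786-46844333) a phosphatidylserine receptor used to bind dying cells. Stab1 (chr14:31139017-31168651) encodes the scavenger receptor stabilin 1, which some endothelial cells also express. The others are secreted or metabolic products. F13a1 (chr13:36867178-37050244) encodes the A subunit of coagulation factor XIII, Pf4 (chr5:90772435-90773383) the chemokine platelet factor 4, and Cbr2 (chr11:120729485-120732025) a carbonyl reductase. All 9 are protein-coding genes.

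Promoter windows of 300 bases, from 250 bases before to 50 after an annotated start, were at hand for 8 members in 10 windows (RefSeq, GRCm38.p6), and Lyve1 had none in that table. The windows of F13a1, Pf4 and Cbr2 are shown because these genes were detected in the same cells and because no other member's window held any of the motifs searched. The other window of F13a1 (chr13:37050195-37050494) held no match and is not shown. Capitals mark the matches.
F13a1 (chr13:37049164-37049463, minus strand): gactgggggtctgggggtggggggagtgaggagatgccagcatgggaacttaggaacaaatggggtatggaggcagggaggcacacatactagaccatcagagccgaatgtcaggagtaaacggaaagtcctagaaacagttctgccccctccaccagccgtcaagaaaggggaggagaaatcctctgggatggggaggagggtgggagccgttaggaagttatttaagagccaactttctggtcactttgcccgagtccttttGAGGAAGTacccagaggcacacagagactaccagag
Pf4 (chr5:90772185-90772484, plus strand): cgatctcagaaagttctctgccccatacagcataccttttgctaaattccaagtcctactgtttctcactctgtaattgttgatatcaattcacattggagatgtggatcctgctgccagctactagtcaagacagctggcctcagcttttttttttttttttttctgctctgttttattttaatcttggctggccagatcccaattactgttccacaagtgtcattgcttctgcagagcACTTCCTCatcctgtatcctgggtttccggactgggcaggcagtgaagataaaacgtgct
Cbr2 (chr11:120731972-120732271, minus strand): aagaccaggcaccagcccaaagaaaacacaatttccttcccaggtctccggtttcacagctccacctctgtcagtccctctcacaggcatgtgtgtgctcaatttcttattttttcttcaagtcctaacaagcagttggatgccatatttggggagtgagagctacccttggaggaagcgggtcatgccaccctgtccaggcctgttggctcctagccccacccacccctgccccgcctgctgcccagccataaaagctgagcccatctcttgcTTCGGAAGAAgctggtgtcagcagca
The capitals in F13a1, and those in Pf4 on the opposite strand, are GAGGAAGT, a form of the site of PU.1, a regulator of myeloid genes, which 3.20% of all 32851 windows held on either strand. The capitals in Cbr2 are a match to the palindromic STAT6 motif, which 6.95% of windows held. The E-box CACGTG, the MAF motif and the interferon response element were in no member window and in 7.15%, 0.387% and 3.44% of all windows. These are matches of letters and say nothing about binding.

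The libraries held 14386 untreated and 14617 MSA-2 barcodes with medians of 8372 and 8661 UMIs (unique molecular identifiers, one per captured transcript), and 53 barcode sequences occurred in both. After filtering and doublet removal, 13334 and 13393 cells were kept. C1q cells, defined as cells in which C1qa, C1qb and C1qc together gave at least 0.1% of UMIs, came to 4161 without treatment (31.2%, 30.4 to 32.0) and to 1479 after MSA-2 (11.0%, 10.5 to 11.6). The log2 ratio of the shares was -1.50 (-1.59 to -1.41). As a check of identity, 10 macrophage markers in C1q cells summed to 28517 and 19121 CPM (UMIs scaled to 1000000 UMIs of the same cells). Apoe alone gave 20936 and 13226 CPM. Adgre1 stood at 221 and 140 CPM, Csf1r at 241 and 158, and Mertk at 107 and 306. Of the 10 markers, 3 were higher with MSA-2, and the median log2 ratio was -0.43. Their levels were not compared with those of other classes. A UMI of Ptprc, the pan-leukocyte gene, was held by 83.7% and 84.1% of C1q cells. Their median depth was 5338 and 4243 UMIs and their median C1q share 1.41% and 0.750%. Just above the gate, between 0.1% and 0.2%, lay 426 and 258 cells, and just below it, down to 0.05%, lay 1249 and 591. Other classes were gated on markers that include no member. The keratin and Epcam list found no cell, so MC38 cells could not be named from it, and the 5062 and 6103 ungated cells without a Ptprc UMI served as the class in which member transcripts should be background. Their median C1q share was 0.0269% and 0.00668%, so background C1q lay nearer the 0.1% gate in the untreated library. Its part in the counts of C1q cells was not tested beyond the other gates given below.

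C1q cells of the MSA-2 library carried more member transcripts per unit of depth than C1q cells of the untreated library. The 9 genes summed to 738 CPM among untreated and to 2411 CPM among MSA-2 C1q cells, a log2 ratio of 1.71 (1.68 to 1.74), from 17337 and 17184 UMIs. The smaller MSA-2 population therefore held nearly the same number of member UMIs as the larger untreated one. Of the 8 members whose UMIs came to at least 50 over the pair of libraries, 6 were at least 2-fold higher and 0 at least 2-fold lower, with a median log2 ratio of 2.70. Over all 12070 genes with that many UMIs, 6.72% were at least 2-fold higher, 6.32% at least 2-fold lower, and the median log2 ratio was -0.17. The members were chosen with earlier results of these data known, so these counts only describe them.

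The receptors for folate, hyaluronan and haemoglobin were among the members with the largest ratios. Folr2 gave 386 UMIs in untreated and 867 in MSA-2 C1q cells, which is 16.4 CPM (14.8 to 18.1) against 122 CPM (114 to 130). Its log2 ratio was 2.89 (2.71 to 3.07). Lyve1 stood at 4.76 CPM from 112 UMIs and at 40.3 CPM from 287, a log2 ratio of 3.08 (2.76 to 3.41). That of Lyve1 was lower, at 2.48, when every cell had equal weight instead of equal UMIs. Cd163 was scarce in both libraries, with 35 UMIs (1.49 CPM, 1.04 to 2.07) and 90 UMIs (12.6 CPM, 10.1 to 15.5), and its log2 ratio was 3.08 (2.51 to 3.69). Timd4 was nearly absent, with 14 and 23 UMIs, or 0.596 (0.326 to 0.999) and 3.23 (2.05 to 4.84) CPM, and stayed under the minimum for a call.

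The mannose receptor and stabilin 1 differed least. Mrc1 was at 203 CPM (198 to 209) without and 343 CPM (330 to 357) with MSA-2, a log2 ratio of 0.75 (0.68 to 0.83). Stab1 was at 81.5 CPM (77.9 to 85.2) and 104 CPM (97.1 to 112), with a log2 ratio of 0.36 (0.24 to 0.48). Neither passed 2-fold, and both lay above the median of all genes.

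The secreted and metabolic products were all past 2-fold. F13a1 stood at 62.7 CPM (59.5 to 65.9) without and 356 CPM (343 to 371) with MSA-2, a log2 ratio of 2.51 (2.42 to 2.60). Pf4 gave the most UMIs of the 9 in both libraries, with 8326 (354 CPM, 347 to 362) and 9520 (1336 CPM, 1309 to 1363), a log2 ratio of 1.91 (1.87 to 1.96). Cbr2 was at 12.6 CPM (11.2 to 14.1) and 93.3 CPM (86.3 to 100.7), a log2 ratio of 2.89 (2.69 to 3.09). The megakaryocyte and platelet list, which would mark another source of Pf4, summed to 2.21 and 5.33 CPM in the same cells, and no cell of either library passed the gate of that list.

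**Figure D1:**
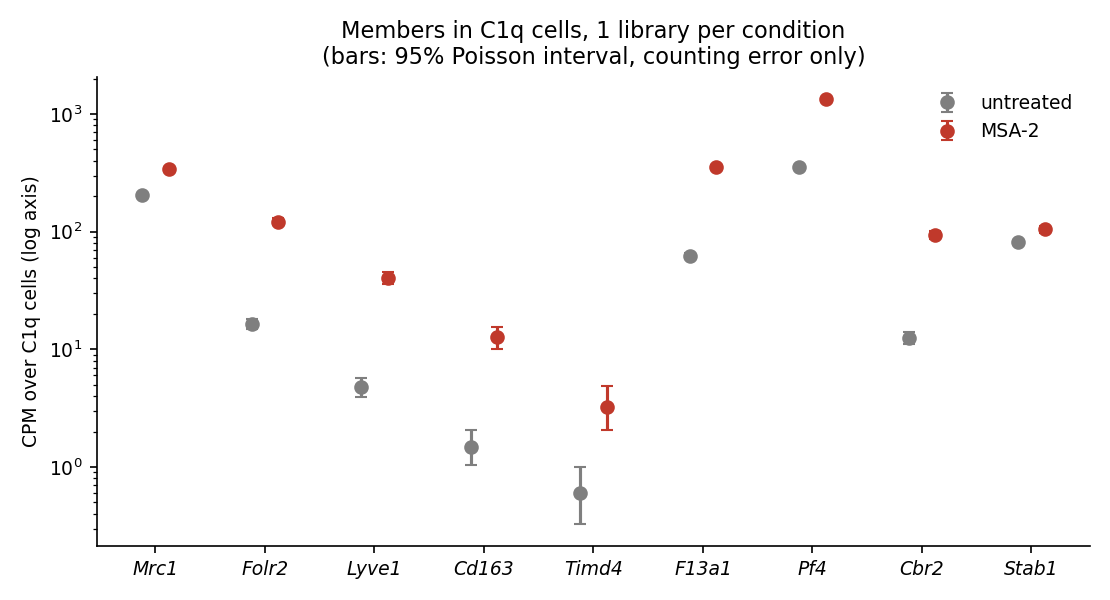
Level of each member over all C1q cells, grey for untreated and red for MSA-2, in CPM on a log axis, with exact 95% Poisson intervals for counting error only. The red point lies above the grey one for each of the 9 genes, by the least for Stab1 (81.5 and 104 CPM) and Mrc1 (203 and 343 CPM).

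**Figure D2:**
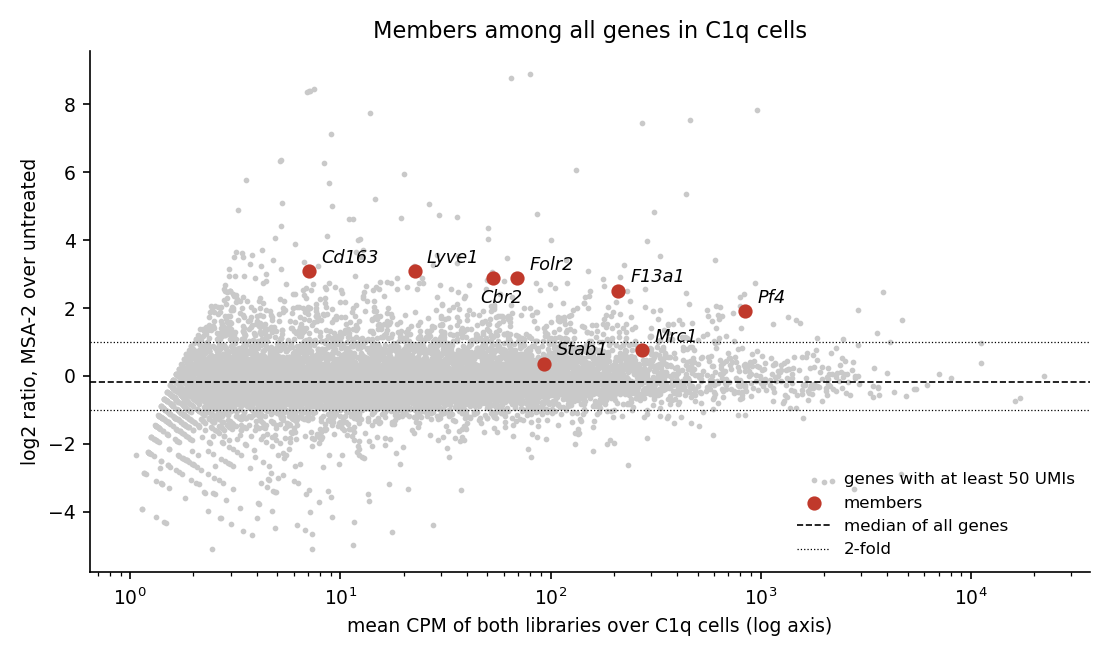
Log2 ratio of MSA-2 over untreated in C1q cells (vertical axis) against the mean CPM of both libraries (log axis) for 12070 genes of at least 50 UMIs, where a library at 0 was set to 3 UMIs. The 8 members with enough UMIs are red, 6 of them above the upper dotted 2-fold line, while the median of all genes (dashed) is at -0.17.

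Marker genes of other cells also differed within C1q cells. Summed neutrophil markers stood at 136 CPM among untreated and at 2086 CPM among MSA-2 C1q cells, with 5 of 8 measured at least 2-fold higher. Summed Ly6c2 monocyte markers stood at 830 and 2287 CPM, with 5 of 6 at least 2-fold higher. The remaining marker of that list, Ccr2, was lower with MSA-2, at a log2 ratio of -0.66 (-0.84 to -0.49). Of the C1q cells, 131 untreated and 163 MSA-2 cells also passed the Ly6c2 monocyte gate, and 5 and 58 the neutrophil gate. The NK and T cell gate ran the other way, with 136 untreated and 2 MSA-2 C1q cells, and its summed markers stood at 85.9 and 8.14 CPM, with 7 of 7 measured at least 2-fold lower. NK and T cells outside the C1q gate had a median C1q share of 0.0296% without treatment and 0% with MSA-2. Summed fibroblast markers stood at 478 and 803 CPM, with 2 of 6 at least 2-fold higher. Without the cells that passed any other gate, the log2 ratio of the summed members was 1.76, and without those of the neutrophil gate it was 1.73. The part of these cells in the member values was not tested beyond this.

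Over all kept cells, where the smaller share of C1q cells enters the value, the members parted. Folr2, Lyve1, Cd163, F13a1 and Cbr2 were still at least 2-fold higher, with log2 ratios of 1.24, 1.35, 1.43, 1.36 and 1.17. Timd4 was at least 2-fold lower, at -1.34 (-2.01 to -0.69) from 70 and 29 UMIs. Over the 17404 genes with enough UMIs in all cells, 9.42% were at least 2-fold higher and 7.60% at least 2-fold lower. Mrc1 and Stab1 were higher within C1q cells yet lower in the whole library, at -0.86 (-0.92 to -0.79) and -0.74 (-0.83 to -0.65), and Pf4 lay at 0.36 (0.32 to 0.39).

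Most member UMIs lay in C1q cells, though a smaller part did so with MSA-2, where C1q cells were also fewer. C1q cells were 31.2% of untreated and 11.0% of MSA-2 kept cells, with 2.35e+07 and 7.13e+06 UMIs of all genes. The shares below follow the size of each class as well as the level in it. C1q cells held 85.5% of the untreated library's member UMIs and 69.2% of the other's. For Folr2 these shares were 86.9% and 78.9%, for Lyve1 85.5% and 82.0%, and for Cbr2 83.6% and 79.8%. The share of F13a1 was 78.4% and 50.3%, with 5.96% and 21.9% in Ly6c2 monocytes. Ungated Ptprc-positive cells held a further 7.61% and 15.6% of F13a1. The share of Stab1 was 72.6% and 45.0%, with 13.3% and 28.7% in ungated cells without Ptprc, where its level was 3.48 and 3.77 CPM. Timd4 differed from all others in that C1q cells held 14 of its 70 untreated UMIs, while dendritic cells held 30.0% and ungated Ptprc-positive cells 38.6%. In the MSA-2 library, 79.3% of its 29 UMIs were in C1q cells and none in the 18 dendritic cells.

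**Figure D3:**
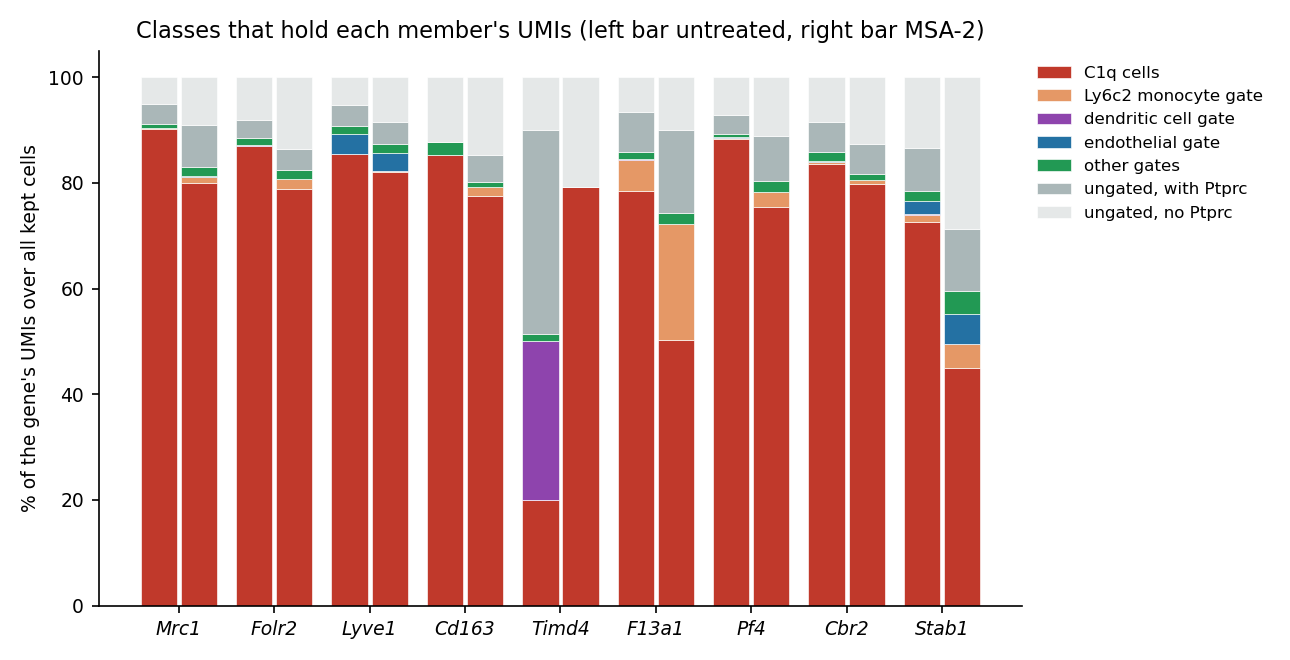
Percent of each member's UMIs over all kept cells that lay in each class, the left bar of a pair being untreated and the right one MSA-2. C1q cells (dark red) hold most UMIs of each gene except Timd4 without treatment (14 of 70 UMIs) and Stab1 with MSA-2 (45.0%), and the Ly6c2 monocyte gate (orange) holds 5.96% and 21.9% of F13a1.

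In the classes other than C1q cells, members were compared at a common depth of 1500 UMIs per cell, drawn at random. F13a1 was found in 13.8% (9.83 to 18.7) of 253 untreated and 35.3% (31.2 to 39.4) of 539 MSA-2 Ly6c2 monocytes, and its level there was 122 and 316 CPM, a log2 ratio of 1.37 (1.09 to 1.67). In both libraries this share was above that in C1q cells, 5.71% of 3851 without treatment and 27.9% of 1316 with MSA-2. Levels of F13a1 in C1q cells were 62.7 and 356 CPM. The monocyte level was thus the higher one without treatment and the lower one with MSA-2. Pf4 was at 25.0 and 105 CPM in Ly6c2 monocytes, against 354 and 1336 CPM in C1q cells. Stab1 was found in 24.1% (13.9 to 37.2) of 58 untreated and 22.1% (12.9 to 33.8) of 68 MSA-2 endothelial cells, at 119 and 118 CPM, and the log2 ratio there was -0.02 (-0.49 to 0.46). Lyve1 gave 5 and 12 UMIs in endothelial cells, and the lymphatic endothelial gate held 0 and 1 cell. Folr2, Cd163 and Timd4 were in no endothelial cell at this depth.

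The same shares were taken in cells outside the C1q gate that should lack these genes. In ungated cells without Ptprc, thinned to 1500 UMIs from medians of 18023 and 17966, Pf4 was found in 1.16% and 1.86% of cells, F13a1 in 0.324% and 0.889%, Stab1 in 0.568% and 0.872%, and Mrc1 in 0.304% and 0.462%. Folr2, Lyve1, Cd163, Timd4 and Cbr2 each stood between 0% and 0.205% in both libraries. Thinned to 5000 UMIs, which 4559 and 5410 of these cells allowed, Pf4 was found in 3.40% and 5.56%, Stab1 in 1.75% and 1.92%, Mrc1 in 1.12% and 1.09%, F13a1 in 0.614% and 1.61%, and each of the other 5 in at most 0.518%. Of MSA-2 neutrophils, whose median depth of 1825 UMIs lies below that of C1q cells, 2.75% of 1816 held Pf4 at 1500 UMIs, 1.32% F13a1 and 0.826% Mrc1. For Pf4, F13a1, Mrc1 and Stab1 the shares printed here lie below those in C1q cells of the same library and depth. At 1500 UMIs, at least 3 members occurred together in 0.0203% and 0.0684% of the ungated cells without Ptprc, against 3.82% and 18.7% of C1q cells at the same depth. Of Ly6c2 monocytes, 0 of 253 untreated cells (up to 1.45%) and 2 of 539 MSA-2 cells did so.

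The number of members found in the same C1q cell was compared after thinning to 5000 UMIs, which 2322 untreated and 586 MSA-2 C1q cells allowed, while 1839 and 893 shallower cells were left out. At least 3 of the 9 members were found in 393 of the untreated cells (16.9%, 15.4 to 18.5) and in 283 of the others (48.3%, 44.2 to 52.4). At least 5 were found in 1.98% (1.45 to 2.63) and 20.1% (17.0 to 23.6). No member was found in 24.6% and 12.5%. With all cells at their own depth, at least 3 members were found in 16.8% and 35.0%, and all 9 in 3 untreated and 1 MSA-2 cells.

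Whether C1q cells with several members were a larger or a smaller part of all kept cells in the MSA-2 library turned with the number of members asked for and with depth. Among all kept cells of at least 5000 UMIs, C1q cells with at least 3 members were 4.19% (3.80 to 4.62) of 9369 untreated and 3.41% (3.03 to 3.82) of 8297 MSA-2 cells. The log2 ratio was -0.30 (-0.52 to -0.07), against -1.81 (-1.94 to -1.68) for all C1q cells of that depth. With at least 4 members it was 0.71 (0.38 to 1.05), from 129 untreated and 187 MSA-2 cells, and with at least 5 it was 1.53 (1.03 to 2.06), from 46 and 118. With at least 3 members at 1500 UMIs it was 0.82 (0.52 to 1.13), from 147 of 12750 and 246 of 12067 kept cells. Other settings gave lower values, namely -1.14 (-1.31 to -0.97) with at least 2 members at 5000 UMIs. With at least 3 members it was -0.88 (-1.40 to -0.38) at 10000 UMIs and -0.44 (-0.61 to -0.28) not thinned. The counts of C1q cells with a UMI of 1 member did not move alike. At their own depth, Folr2 was found in 190 untreated and 313 MSA-2 cells, Lyve1 in 50 and 85, Cbr2 in 138 and 204, and F13a1 in 441 and 644. Mrc1, by contrast, was found in 1736 and 594 cells, Stab1 in 1256 and 441, and Pf4 in 1718 and 827.

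**Figure D4:**
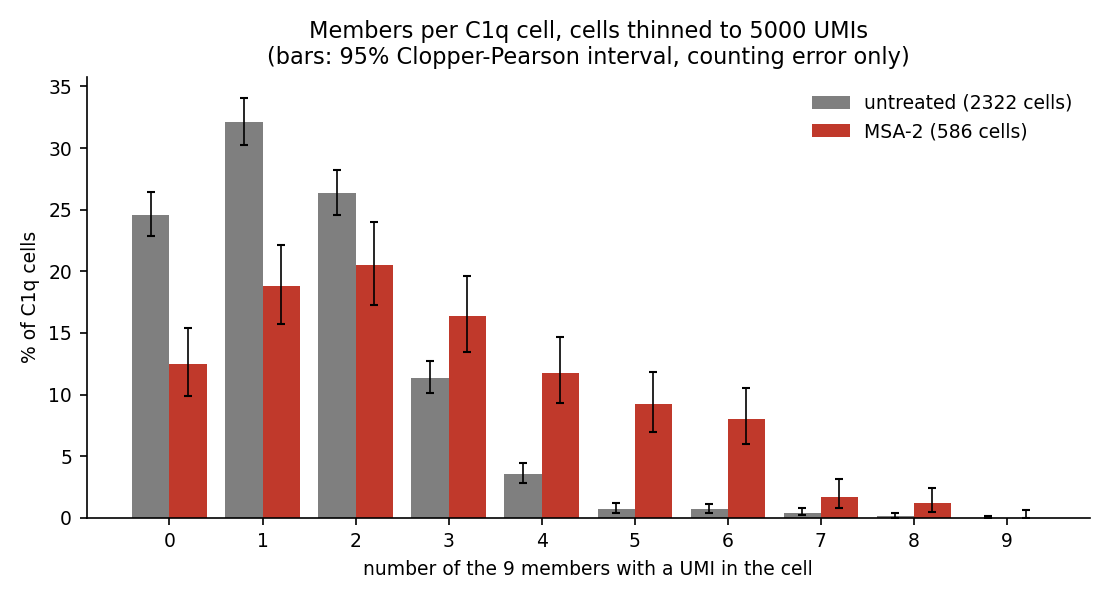
Percent of C1q cells (vertical axis) by the number of the 9 members with a UMI (horizontal axis), grey for untreated (2322 cells) and red for MSA-2 (586 cells), each cell thinned to 5000 UMIs, with exact 95% Clopper-Pearson intervals. The untreated cells peak at 1 member (32.1%) and fall to 3.57% at 4, while the MSA-2 cells hold 11.8% at 4 and 8.02% at 6.

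The members differed in how far a difference lay in the share of positive cells or in UMIs per positive cell. At 5000 UMIs, Folr2 was found in 4.48% (3.67 to 5.40) of untreated and 33.1% (29.3 to 37.1) of MSA-2 C1q cells, with means of 1.84 and 2.30 UMIs per positive cell. F13a1 was found in 10.9% and 48.1%, with 2.83 and 3.67 UMIs, Cbr2 in 3.79% and 20.3%, with 1.81 and 2.81, and Lyve1 in 1.21% and 9.56%, with 1.82 and 2.34. These 4 genes differed mainly in the share of cells. Pf4 differed in both, from 46.1% and 4.25 UMIs to 71.0% and 11.1 UMIs. Mrc1 was found in 47.3% (45.2 to 49.3) and 52.2% (48.1 to 56.3), with 2.32 and 3.70 UMIs per positive cell, and Stab1 in 30.8% (28.9 to 32.7) and 32.3% (28.5 to 36.2), with 1.38 and 1.65. For those receptors the intervals of the shares overlapped at this depth. At 1500 UMIs, which keeps 3851 and 1316 cells, they did not overlap for Mrc1, at 19.9% (18.7 to 21.2) and 26.4% (24.0 to 28.8). Cd163 was found in 0.431% and 4.10% and Timd4 in 0.129% and 1.02%.

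Folr2, Lyve1, Cbr2 and Cd163 were found in each other's cells. Of the 28 untreated C1q cells with Lyve1, 78.6% (59.0 to 91.7) also held Folr2, against 3.57% of cells without Lyve1, and of 56 such MSA-2 cells 89.3% (78.1 to 96.0) did, against 27.2%. Cbr2 was in 89.3% and 78.6% of the Lyve1 cells, F13a1 in 92.9% and 87.5%, and Pf4 in 89.3% and 100%. The relation was nested, since of the 104 and 194 cells with Folr2 only 21.2% and 25.8% held Lyve1, while 38 and 97 of them held Cbr2. Of the cells with Cd163, 10 and 24 in number, 5 and 20 held Folr2 and 9 and 22 held Mrc1. Timd4 was in 3 and 6 cells, of which 2 and 5 held Folr2.

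F13a1, Mrc1, Pf4 and Stab1 were also found in cells without Folr2, Lyve1 and Cbr2. Folr2, Lyve1 or Cbr2 was found in 6.76% (5.77 to 7.86) of all 2322 untreated and 37.0% (33.1 to 41.1) of all 586 MSA-2 C1q cells at this depth. Of the 253 untreated cells with F13a1, 24.5% (19.3 to 30.3) held Folr2, Lyve1 or Cbr2, and of the 282 MSA-2 cells 54.6% (48.6 to 60.5) did. For Mrc1 these shares were 9.20% (7.55 to 11.1) of 1098 and 52.9% (47.2 to 58.6) of 306, for Pf4 11.8% (9.90 to 13.9) of 1070 and 49.3% (44.4 to 54.2) of 416, and for Stab1 9.65% (7.59 to 12.1) of 715 and 42.9% (35.7 to 50.2) of 189. F13a1 cells stood farthest above the share of all C1q cells in the untreated library, and in the MSA-2 library Stab1 cells stood nearest to it. Stab1 was found in 41.3% of untreated Folr2 cells against 30.3% of cells without Folr2, and in 36.1% against 30.4% in the MSA-2 library. In MSA-2 cells it was as frequent with Lyve1 (32.1%, 20.3 to 46.0) as without (32.3%). Across all C1q cells (4161 and 1479, which share a library each and differ in depth), Pearson r of log1p UMIs per 10000 was 0.63 and 0.52 for Lyve1 with Cbr2, 0.47 and 0.56 for Folr2 with Cbr2, and 0.45 and 0.46 for Folr2 with Lyve1. For Stab1 with any other member it was at most 0.24.

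**Figure D5:**
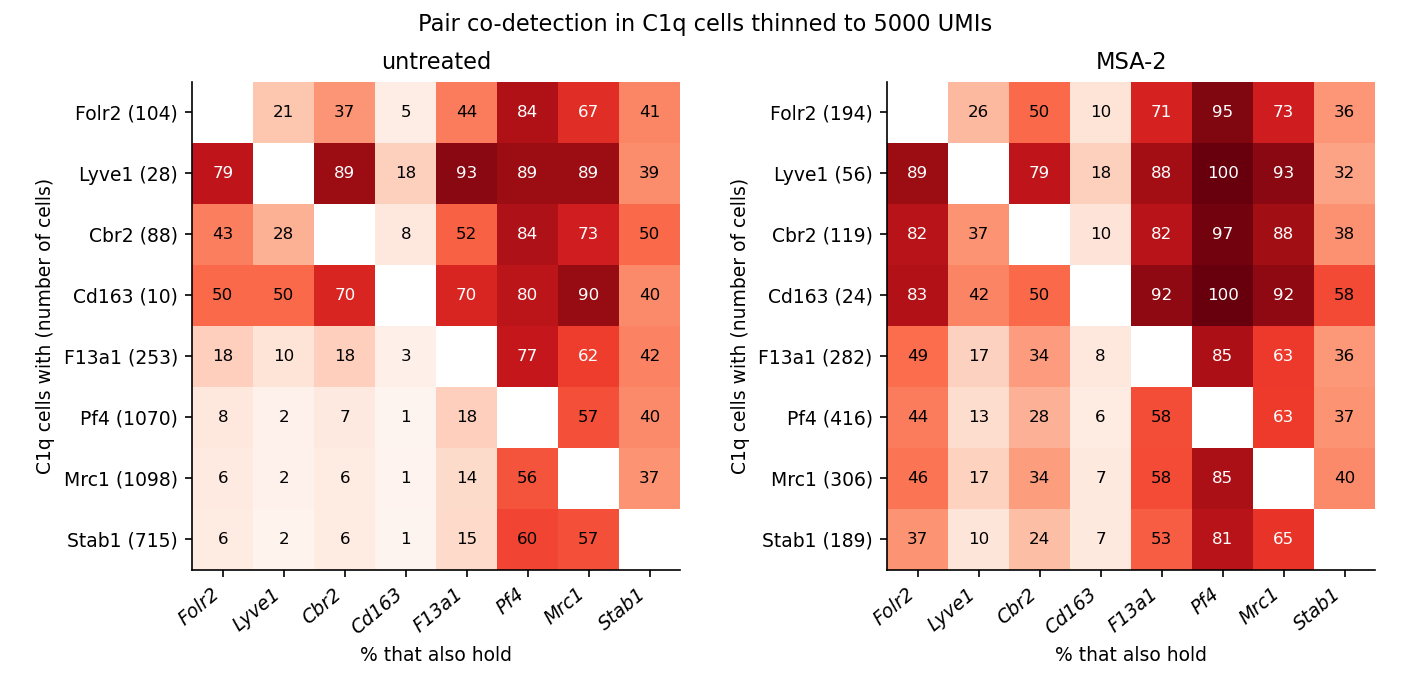
Percent of C1q cells with the row gene (number of cells in parentheses) that also hold the column gene, thinned to 5000 UMIs, for 8 members in each library; Timd4, with 3 and 6 cells, is left out. The rows of Lyve1, Folr2, Cbr2 and Cd163 are darker than those of Stab1, Mrc1 and Pf4 in the first 3 columns, and the Stab1 column is nearly even apart from Cd163 cells with MSA-2 (14 of 24).

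F13a1 split the C1q cells further, in a grouping chosen after these values had been seen. The kinds rest on which genes had a UMI at 5000 UMIs, and no other depth was run for them. Sparse genes are missed at this depth. In the MSA-2 library, Folr2 was found in 33.1% of C1q cells at 5000 UMIs and in 53.8% of the 80 that allowed 10000. Below, without or alone means no UMI of the other genes at this depth. At 5000 UMIs, cells with F13a1 and also Folr2, Lyve1 or Cbr2 were 62 untreated (2.67% of C1q cells) and 154 MSA-2 cells (26.3%). Cells with F13a1 but none of those 3 genes were 191 (8.23%) and 128 (21.8%), cells with one of the 3 without F13a1 were 95 (4.09%) and 63 (10.8%), and cells with none of the 4 genes were 1974 (85.0%) and 241 (41.1%). As shares of all kept cells of that depth, the first kind was 0.662% and 1.86%, a log2 ratio of 1.49 (1.05 to 1.94), and the last was 21.1% and 2.90%, a log2 ratio of -2.86 (-3.06 to -2.67). The second kind lay at -0.40 (-0.74 to -0.07) and the third at -0.42 (-0.90 to 0.06), an interval that includes 0.

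Mrc1, Pf4 and Stab1, which did not define these kinds, can be read within them. In cells with none of the 4 genes, Mrc1 stood at 198 CPM without and 201 CPM with MSA-2, and in cells with F13a1 and one of the 3 others at 794 and 853 CPM. Within each of these kinds its level was thus close in both libraries, although over all C1q cells of that depth, thinned alike, it was 219 and 386 CPM. Stab1 stood at 77.6 and 88.8 CPM in the cells with none and at 158 and 142 CPM in the cells of the first kind. Pf4 was higher in the MSA-2 library in each kind, at 252 and 480 CPM with none of the 4, 1082 and 1366 CPM with F13a1 alone, 623 and 1657 CPM with one of the 3 alone, and 2368 and 3417 CPM with both.

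The monocyte genes Ly6c2 and Ccr2 differed between these kinds of F13a1 cells, and Plac8 differed less. Ly6c2, a marker of inflammatory monocytes, was at 3.23 CPM (1 UMI) and 98.7 CPM in cells with F13a1 and one of the 3, and at 138 and 478 CPM in cells with F13a1 alone. Ccr2, their chemokine receptor, was at 3.23 and 32.5 CPM against 98.4 and 85.9 CPM. Plac8, also of the Ly6c2 monocyte list, was at 235 and 1177 CPM with both and at 377 and 1444 CPM with F13a1 alone. In cells with none of the 4 genes, Ly6c2 stood at 64.1 and 166 CPM, Ccr2 at 71.8 and 23.2, and Plac8 at 153 and 557. Against these, MSA-2 cells with both were lower in Ly6c2 and higher in Plac8, and the intervals overlapped for Ccr2. Of the cells with F13a1 alone, 10 of 191 untreated and 26 of 128 MSA-2 cells passed the Ly6c2 monocyte gate, and of those with both 0 of 62 and 9 of 154. The chemokine gene Ccl8 ran the other way, at 4719 and 3669 CPM with both and 435 and 152 CPM with F13a1 alone. Median depth before thinning was 7388 and 6974 UMIs with both and 6812 and 6046 with F13a1 alone. The median C1q share also differed, at 1.68% and 1.43% with both and 1.36% and 0.804% with F13a1 alone.

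C1q cells with at least 3 members held fewer transcripts of class II antigen presentation than C1q cells with none. The 7 class II genes, among them H2-Aa, Cd74 and the activator Ciita, summed at 5000 UMIs to 13552 CPM in cells with at least 3 members and 29500 CPM in cells with none in the untreated library. In the MSA-2 library the sums were 1424 and 6203 CPM. The 10 interferon-stimulated genes, such as Isg15 and Rsad2, summed to 4765 and 7476 CPM in untreated and to 16723 and 21638 CPM in MSA-2 cells. They were thus lower in member-rich cells in both libraries and higher in the MSA-2 library in both kinds of cell. The inflammatory genes, which include Tnf and Ccl4, summed to 14607 and 16237 CPM in untreated and to 22161 and 28668 CPM in MSA-2 cells. Median depths before thinning lay between 6356 and 6915 UMIs in these 4 sets of cells.

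Further resident and scavenger genes differed in the same cells. Of 30 listed companions, 29 had enough UMIs in C1q cells, and 17 of these were at least 2-fold higher with MSA-2 and 2 at least 2-fold lower, with a median log2 ratio of 1.08. This list, too, was chosen with earlier results of these data known. Vsig4, a complement receptor of resident macrophages, gave 0 UMIs in untreated and 74 in MSA-2 C1q cells, and the exact interval of its log2 ratio began at 6.01. Cd5l, a secreted scavenger protein, gave 3 and 73 UMIs, a log2 ratio of 6.33 (4.72 to 8.64). Fcna, a ficolin, was higher by a log2 ratio of 2.89, Ltc4s, a leukotriene synthase, by 2.28, the scavenger receptor Marco by 2.21, Siglec1 by 1.73 and Msr1 by 1.31. The transcription factor Maf lay at 0.62, and Selenop and Igf1 at -0.18 and -0.12. The lectin genes Mgl2 and Cd209d were lower, at -4.59 from 795 and 10 UMIs and -1.28 from 48 and 6. Of 11 regulators, Nr3c1, Il10 and Csf1 were at least 2-fold higher and Klf4 and Irf4 at least 2-fold lower.

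Several companions were lower or at 0 in C1q cells with no member than in those with at least 3. At 5000 UMIs, Cd209f was at 32.6 and 38.9 CPM in cells with at least 3 members of the untreated and the MSA-2 library, and at 0.350 and 0 CPM in cells with none. Ednrb, the endothelin receptor B gene, was at 43.3 and 65.0 against 2.10 and 0 CPM, and Gas6, a bridging ligand for dying cells, at 97.7 and 90.5 against 5.25 and 21.9 CPM. Fcna was at 26.5 and 78.4 against 0.701 and 0 CPM. Vsig4 and Cd5l were at 26.9 and 26.1 CPM in member-rich MSA-2 cells and at 0 CPM in MSA-2 cells with none. In cells with 1 or 2 members, Cd209f was at 0.442 and 0 CPM, Ednrb at 0.736 and 0.870, Gas6 at 14.7 and 9.57, and Fcna at 0.589 and 0.870. In member-rich untreated cells Vsig4 was at 0 and Cd5l at 0.509 CPM.

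Genes were ranked by how like their pattern across C1q cells was to that of the members. Over 7092 genes, by the lower r of the 2 libraries, the 10 closest to the summed members were Ctsb, Ctsd, Selenop, Lyz2, Dab2, Trem2, Ccl8, Lgmn, Ftl1 and Cd68, with r from 0.32 to 0.44. Among those closest to F13a1 were Ccl6 (0.33 and 0.37), Ccl9, Ltc4s and Ctsd, and those closest to Mrc1 were Ctsb (0.28 and 0.36), Selenop, Dab2, Ccl8 and Lyz2. Those closest to Pf4 were Ctsd (0.43 and 0.43), Ctsb, Trem2, Ftl1 and Cd68. For Stab1 the closest was Lgmn, with only 0.19 and 0.23. These are correlations over sparse counts within single libraries, and cells of a library are not replicates.

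Member levels also varied with the level of C1q itself. In the untreated library the summed members stood at 42.1 CPM in cells with 0.05% to 0.1% C1q, 160 CPM from 0.1% to 0.2%, 478 CPM from 0.2% to 0.5%, 921 CPM from 0.5% to 1% and 789 CPM above 1%. In the MSA-2 library they stood at 443, 844, 1803, 2569 and 2964 CPM in the same bins. The MSA-2 value was the higher one in each bin, though background C1q of other classes lay nearer the lowest bin in the untreated library. F13a1 did not follow C1q in MSA-2 cells, with 187 CPM below the gate, 445 CPM from 0.2% to 0.5% and 331 CPM above 1%, whereas Folr2 stood at 4.59, 34.9 and 192 CPM and Lyve1 at 2.87, 6.35 and 68.6 CPM in those bins. In untreated cells F13a1 was also lower above 1%, at 52.6 CPM, than from 0.5% to 1%, at 128 CPM. Lyve1 there was at 4.26 and 7.53 CPM and Folr2 at 18.3 and 16.9 CPM.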

How the data were processed

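The authors made droplet-based 3′ libraries from 1 pool of tumors per condition and deposited unnormalized UMI counts of 32285 features in every barcode. The submitters' processing notes name Cell Ranger 7.0.0, Seurat 4.3.0 and the mm10 build, while the file headers name Cell Ranger 7.0.1. Kept barcodes had 500 or more genes and a mitochondrial share of UMIs of 20% or less. Doublets called by Scrublet in scanpy 1.11.5, at an expected 0.8% per 1000 barcodes (705 untreated, 570 MSA-2), were removed.

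UMIs were summed per class and scaled to CPM of that class, and libraries were compared as log2 of the MSA-2 over the untreated value, with 2-fold as the call among genes with at least 50 UMIs. Intervals are exact at 95%. A class needed at least 2 of its markers and a minimum share of UMIs, set after the marker distributions had been seen. C1q cells took precedence. Thinning drew UMIs without replacement (seed 1). Sums and thinning were tested on simulated data.

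All 9 members were named, with fixed companion lists, regulators and motifs, and for likeness the first 10 genes for the sum and 5 per member found in at least 5% of C1q cells. The members and lists were chosen with earlier results of these data known. Python 3.11.15, numpy 2.4.6, scipy 1.17.1, pandas 2.3.3, R 4.3.3 and edgeR 4.0.16 were used. Alternatives covered the cell filter, doublets, C1q gate, scaling, weighting, thinning depth and low-count minimum.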

Additional observations from a re-analysis of the deposited data

How the results depend on the processing

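No paired analysis was possible because each condition is 1 library. Each member kept the direction of its log2 ratio in C1q cells under all 13 alternatives, and over all kept cells under the 3 run there. The 6 members past 2-fold in C1q cells stayed past it, their lowest values being Folr2 2.63, Lyve1 2.48, Cd163 2.99, F13a1 2.41, Pf4 1.76 and Cbr2 2.60, and Mrc1 (at most 0.93) and Stab1 (at most 0.51) stayed within it. Timd4 rested on few UMIs and moved to 3.30 with the C1q gate at 0.5% and 3.12 after thinning to 5000 UMIs.

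The log2 ratio of the summed members was 1.74 with the stricter cell filter, 1.79 with doublets kept, 1.89, 1.74 and 1.81 with the gate at 0.05%, 0.2% and 0.5%, 1.76 without C1q cells of another gate, 1.80 with edgeR TMM and 1.80 with median-of-ratios factors, 1.56 with equal weight per cell and 1.79 thinned to 5000 UMIs. TMM and median-of-ratios factors moved all genes by 0.09. Alternatives chosen after seeing the data gave 1.73 without C1q cells of the neutrophil gate and 1.70 without the 39 kept barcodes that both libraries held. The log2 ratio of the C1q share was -1.29 with the stricter filter, -1.39, -1.62 and -1.89 with the gates in that order, and -1.63 without cells of another gate. That of the share with at least 3 members (1.51) was 1.76 with the gate at 0.05%, 2.29 and 1.03 thinned to 1500 and 10000 UMIs, 1.06 not thinned, and 0.67 and 2.52 for at least 2 and 4 members. As a share of all kept cells (-0.30), alternatives also chosen after seeing the data gave -1.14, 0.71 and 1.53 for at least 2, 4 and 5 members, 0.82 and -0.88 thinned to 1500 and 10000 UMIs, and -0.44 not thinned. Genes past 2-fold numbered 811 higher and 763 lower, 1409 and 1394 at a minimum of 10 UMIs, and 502 and 386 at 200 UMIs. The causes were not tested. Thinning to 5000 UMIs leaves out the shallower part of C1q cells, and the intervals carry no spread between tumors.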
